A study of Mus musculus with 4 samples.

Results

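The Rab GTPase genes of 4 immortalized mouse melanocyte cell lines were examined on Affymetrix arrays, with 1 array per line. Members were all genes whose symbol is Rab followed by a number, without the interacting and activating proteins that share this prefix. This gave 62 of the 18193 genes measured, of which 59 encode Rab GTPases. The other 3 were Rab3il1, an exchange factor, and the opposite-strand transcripts Rab10os and Rab26os. The lines came from the skin of C57BL/6J pups aged 3 days, either wild type (WT) or carrying bcat*, a stable and transcriptionally active β-catenin expressed in the melanocyte lineage. All lines were kept in serum-containing Ham's F12 medium with TPA at 200 nM, a phorbol ester added to melanocyte cultures. Line 10d (bcat*, male) and line 9v (WT, male) have the same genotype in the sample labels and in the article. Line 13d (female) is bcat* and line 14d (female) is WT by the labels, whereas the article gives both lines the opposite genotype and describes the mice as male. Lines 13d and 14d are therefore reported by name, and both readings of their genotype were fitted. With 1 array of 1 line on each side, line and genotype cannot be told apart between lines 10d and 9v.

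Rab proteins are small GTPases that switch between a GDP-bound and a GTP-bound form. In the GTP-bound form they sit on the membrane of a given organelle and recruit motors, tethers and other effectors. Exchange factors load them with GTP, and GTPase-activating proteins switch them off. In melanocytes, Rab38 and Rab32 deliver pigment enzymes to the melanosome, and Rab27a then binds melanophilin and myosin Va to hold the melanosome on peripheral actin. Other members act in the endosomes from which melanosomes arise or in the exocytosis through which melanin leaves the cell.

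The values were deposited intensities on a linear scale, in which 32 was taken as the detection level. The medians of the arrays were 7 or 8, and 35.8% to 36.1% of probe sets reached 32. All 11 measured melanocyte markers were detected in every line. Oca2, Gpr143 and Slc45a2 were more than 2-fold apart between lines, with log2 ranges of 1.85, 1.2 and 1.1, and the other markers were less than 2-fold apart. Oca2 had an intensity of 16985 in line 10d, 4710 in line 13d, 5931 in line 14d and 12182 in line 9v. Of the keratinocyte, fibroblast, leukocyte, endothelial and Schwann cell markers, Krt10, Csf1r and Col1a2 reached 32 in any line, and Krt5, Krt14, Col1a1, Col3a1, Ptprc and Pecam1 did not. Col1a2 had an intensity of 80 in line 10d, 24 in line 13d, 17 in line 14d and 175 in line 9v, and the 6 fibroblast markers summed to 126 in line 10d, 71 in line 13d, 66 in line 14d and 227 in line 9v. By the Methods, selection with G418 removed fibroblasts when the lines were made, and keratinocytes do not grow in this medium. The part of these marker differences in the results was not tested. In a culture, fewer cells of a kind and less RNA per cell cannot be told apart.

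Of the 59 Rab GTPase genes, 44 were detected in at least 1 line. Among them, 38 were detected in all 4 lines and 6 in 1 to 3 lines, namely Rab3b, Rab3d, Rab6b, Rab20, Rab39b and Rab40b. The remaining 15 were under the detection level in every line. These were Rab3c, Rab7b, Rab9b, Rab17, Rab19, Rab25, Rab26, Rab27b, Rab30, Rab33a, Rab36, Rab37, Rab39, Rab42 and Rab44. Rab27b, the close relative of Rab27a, had intensities of 5 to 8 over its 4 probe sets in all lines. Rab17, which acts at recycling endosomes and in melanocytes in the release of melanosomes, had an intensity of 15 in each of the 4 lines by its brightest probe set. Rab36, which has been linked to the retrograde movement of melanosomes, had an intensity of 29 in line 10d, 19 in line 13d, 7 in line 14d and 14 in line 9v.

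**Figure D1:**
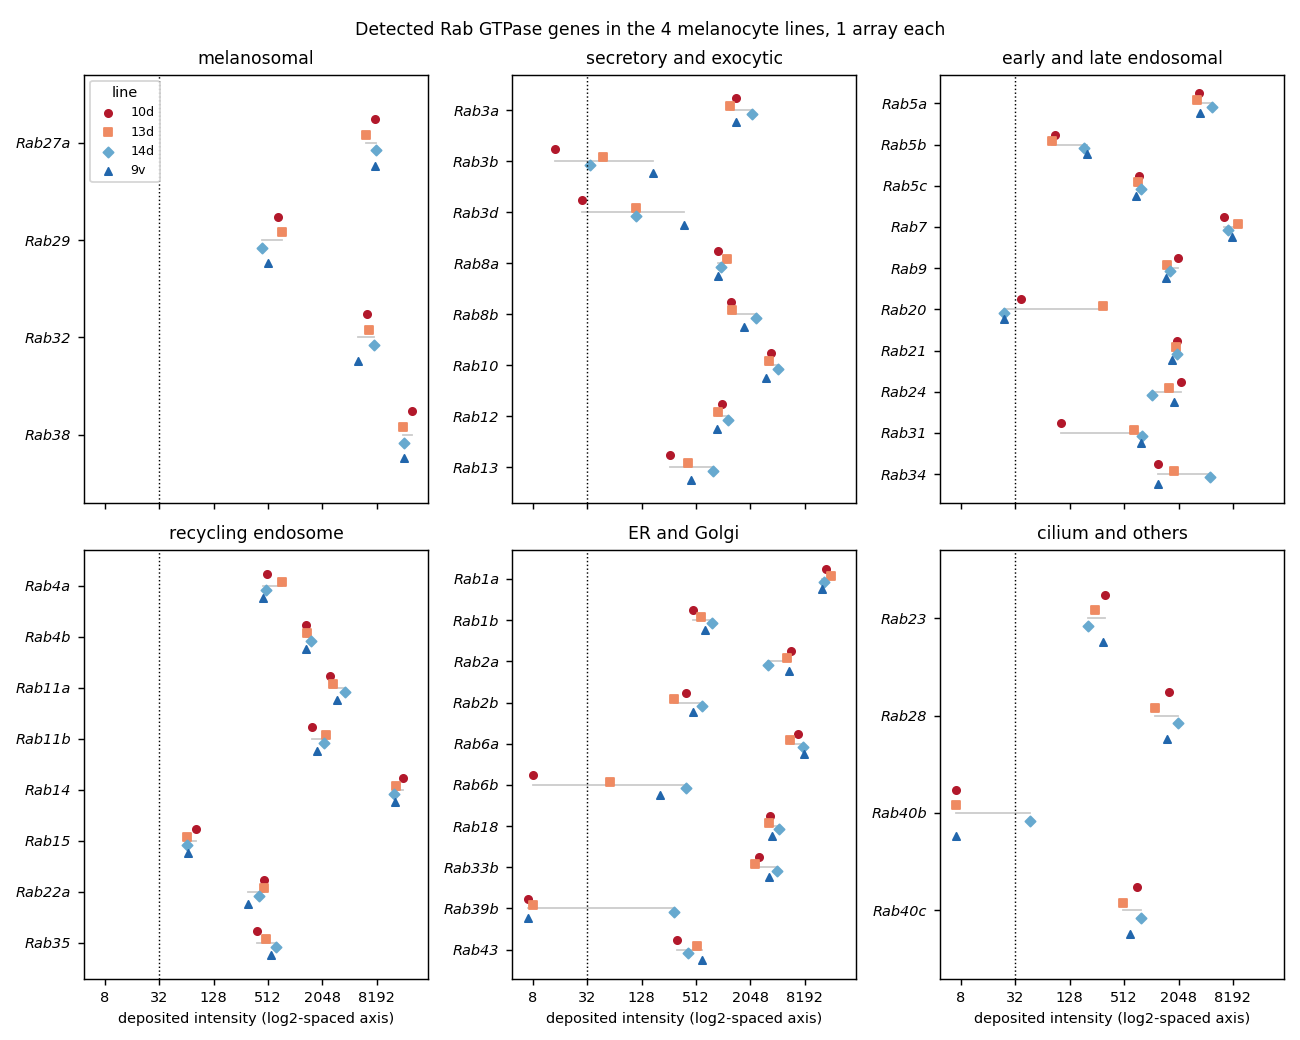
Deposited intensity (log2-spaced axis) of the 44 detected Rab GTPase genes by role, with 1 point per line and array. The dotted line marks the detection level of 32. Most genes have their 4 points within 2-fold, and those of Rab3d, Rab3b, Rab31, Rab20, Rab6b and Rab39b are spread out.

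The start regions of 3 members that set single lines apart are shown, as the 250 bases before an annotated start (build GRCm38.p6). For Rab31 and Rab20 this start is the RefSeq boundary of the gene, and for Rab3d it lies inside that boundary. Rab31 and Rab3d had their lowest values in line 10d, and Rab20 its highest in line 13d. Capitals mark CTTTGA or CTTTGT, bound by Tcf/Lef factors, the DNA-binding partners of β-catenin, and CACGTG or CATGTG, bound by Mitf and related factors, on either strand. CACGTG reads alike on both strands, and none of these motifs can match at the same place as another. The regions lie at chr17:65772753-65773002 (minus strand), chr9:21918184-21918433 (minus strand) and chr8:11478641-11478890 (minus strand).
Rab31: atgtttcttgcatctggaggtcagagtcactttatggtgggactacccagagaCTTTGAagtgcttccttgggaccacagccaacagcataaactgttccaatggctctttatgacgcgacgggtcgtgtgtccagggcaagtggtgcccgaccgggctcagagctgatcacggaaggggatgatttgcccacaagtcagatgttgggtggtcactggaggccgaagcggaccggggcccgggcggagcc
Rab3d: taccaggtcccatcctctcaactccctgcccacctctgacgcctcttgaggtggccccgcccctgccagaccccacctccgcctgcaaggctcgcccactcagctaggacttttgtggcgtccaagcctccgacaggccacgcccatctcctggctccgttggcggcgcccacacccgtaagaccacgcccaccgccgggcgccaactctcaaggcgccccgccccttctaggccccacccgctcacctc
Rab20: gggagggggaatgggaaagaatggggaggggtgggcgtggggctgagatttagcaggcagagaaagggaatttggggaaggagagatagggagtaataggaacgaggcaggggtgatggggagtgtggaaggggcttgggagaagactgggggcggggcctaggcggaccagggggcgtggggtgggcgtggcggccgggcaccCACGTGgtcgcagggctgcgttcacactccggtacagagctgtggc
Rab31 held 1 CTTTGA, which began 197 bases before the start, Rab3d held none of the motifs, and Rab20 held 1 CACGTG, which began 46 bases before the start. Of the 59 genes, 48 had an entry, with 60 start regions in all, of which 32 began at the RefSeq boundary of the gene. CTTTGA was found in 8 of these 60, or 13.3%, against 13.8% of all 32851 start regions. CTTTGT was found in 2, or 3.33%, against 16.5%, CACGTG in 5, or 8.33%, against 6.02%, and CATGTG in 6, or 10%, against 12.3%. These are matches of letters, and binding was not measured.

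Of the 8 measured genes listed as melanosomal, Rab38, Rab32, Rab27a and Rab29 were detected, each in all lines, and Rab17, Rab27b, Rab36 and Rab44 were under the detection level in every line. Rab38, which is mutated in the chocolate mouse, had an intensity of 20381 in line 10d, 15936 in line 13d, 16226 in line 14d and 16387 in line 9v. Line 10d was the highest, at a ratio of 1.24 to line 9v, and its other probe set had a ratio of 1.36. Rab32, the closest relative of Rab38, had an intensity of 6330 in line 10d, 6782 in line 13d, 7672 in line 14d and 5136 in line 9v. Line 14d was the highest, at 1.49 times line 9v, the lowest. Rab27a, which is mutated in the ashen mouse, had an intensity of 7819 in line 10d, 6262 in line 13d, 8096 in line 14d and 7831 in line 9v. Its 3 detected probe sets gave ratios of 0.998 to 1.19 between line 10d and line 9v, without a common direction. Rab29, which is related to Rab32 and Rab38, had an intensity of 663 in line 10d, 729 in line 13d, 438 in line 14d and 515 in line 9v. Over the 4 detected genes of this group the median log2 difference of line 10d from line 9v was 0.31, beside 0 over all detected genes, and none of the 4 was 2-fold apart between any of the lines, where 40.1% of all 9415 detected genes were. With 4 genes, this count is given as a description.

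Line 10d was then compared with line 9v, the bcat* and WT lines to which the labels and the article give the same genotype. Differences are log2 values of line 10d minus line 9v after raising intensities to 32, and where 1 line lay under 32 the fold is a lower bound. Without replicates no test was possible, and a gene was counted at a 2-fold difference. Of the 42 Rab GTPase genes detected in either line, none was at least 2-fold higher in line 10d, where 7.85% of all 9131 detected genes were. Of the same 42 genes, 5 lay 2-fold or more below line 9v, or 11.9%, against 10% of all detected genes. The share of lower members was thus near that of all genes. The 5 genes were Rab3d (chr9:21907491-21918199), Rab31 (chr17:65651726-65772752), Rab6b (chr9:103111667-103185276), Rab3b (chr4:108879070-108943324) and Rab5b (chr10:128677170-128696284), with coordinates of the genes in GRCm38.p6, and the other 37 had log2 differences from -0.90 (Rab43) to 0.60 (Rab22a). The median over the 42 genes was -0.01, beside 0 over all detected genes. Of 24 Rab genes with at least 2 detected probe sets, 14 had all of them in the same direction, and the log2 ratios of the probe sets of a gene spread by a median of 0.28.

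**Figure D2:**
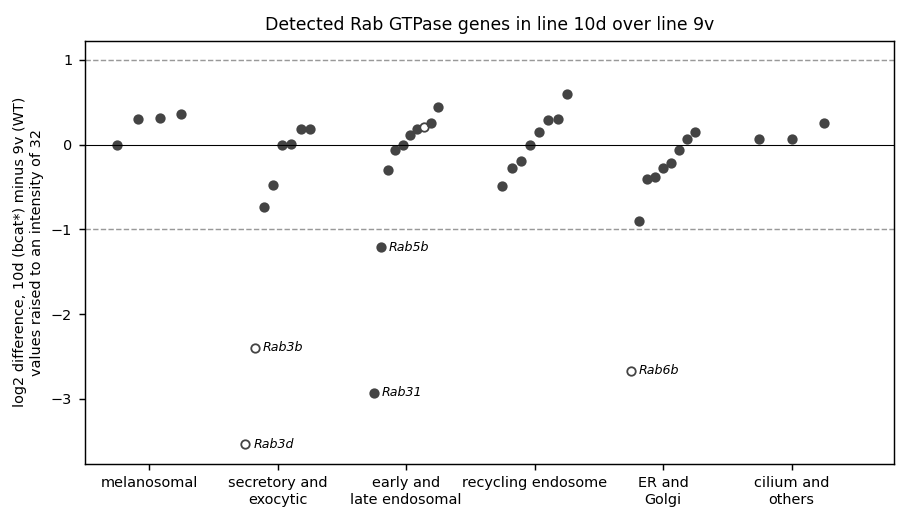
Log2 difference of line 10d (bcat*) from line 9v (WT), values raised to an intensity of 32, for the 42 Rab GTPase genes detected in either line, by role. Open points have 1 line under the detection level and are bounds, dashed lines mark 2-fold, and the 5 named genes lie at -1.21 or lower.

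Among the 8 detected secretory Rab genes, Rab3d and Rab3b had the widest ranges over the lines. Rab3d, a GTPase of secretory granules, had an intensity of 28 in line 10d, 112 in line 13d, 112 in line 14d and 372 in line 9v. Line 10d was at least 11.6-fold below line 9v, and lines 13d and 14d lay between them. By the second detected probe set of Rab3d the intensity was 15 in line 10d, 116 in line 13d, 143 in line 14d and 507 in line 9v, so that lines 10d and 9v again were the lowest and the highest. Rab3b, an isoform known from neurons and endocrine cells, had an intensity of 14 in line 10d, 48 in line 13d, 34 in line 14d and 169 in line 9v, by its single probe set. Line 10d was at least 5.28-fold below line 9v, and line 9v was the highest of the 4 lines. Rab3a, the main isoform of synaptic vesicles, had an intensity of 1405 in line 10d, 1204 in line 13d, 2108 in line 14d and 1415 in line 9v, so that lines 10d and 9v were at a ratio of 0.993. This rests on a probe set whose suffix marks possible matches to other transcripts. The other Rab3a probe set had 185 in line 10d, 194 in line 13d, 490 in line 14d and 232 in line 9v. There, lines 10d and 9v were at a ratio of 0.797, and line 14d was 2.11 times line 9v. Rab13, which acts in the delivery of proteins to cell junctions, had an intensity of 267 in line 10d, 421 in line 13d, 790 in line 14d and 445 in line 9v. The highest line, 14d, was 2.96 times the lowest, 10d. Rab8a, Rab8b, Rab10 and Rab12, which take part in exocytosis and membrane delivery, had log2 differences of 0.01, -0.48, 0.18 and 0.19 between line 10d and line 9v.

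Of the endosomal Rab genes, Rab31, a relative of Rab5 that acts between the trans-Golgi network and endosomes, had an intensity of 102 in line 10d, 662 in line 13d, 813 in line 14d and 780 in line 9v. Line 10d alone was low, 7.65-fold below line 9v, while the other lines lay close to each other. Its second probe set had an intensity of 25 in line 10d, 188 in line 13d, 228 in line 14d and 247 in line 9v. Rab5b, one of the isoforms of Rab5 at the early endosome, had an intensity of 87 in line 10d, 81 in line 13d, 182 in line 14d and 201 in line 9v. Lines 10d and 13d were both low, and line 10d was 2.31-fold below line 9v. By its second probe set the intensities were 56 in line 10d, 64 in line 13d, 79 in line 14d and 185 in line 9v, so that line 14d there lay nearer to lines 10d and 13d. The other isoforms, Rab5a and Rab5c, had log2 differences of -0.06 and 0.11 between line 10d and line 9v. Rab7, which acts at late endosomes and lysosomes, had an intensity of 6447 in line 10d, 9229 in line 13d, 7239 in line 14d and 7916 in line 9v. Rab9, which returns receptors from late endosomes to the Golgi, had a log2 difference of 0.45.

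Some endosomal genes stood out in a line other than 10d or 9v. Rab20, which is known from endosomes and phagosomes, had an intensity of 37 in line 10d, 297 in line 13d, 24 in line 14d and 24 in line 9v. It was high in line 13d alone, at least 9.28-fold above lines 14d and 9v, by its single probe set. Rab34, which has been linked to the position of lysosomes and to cilia, had an intensity of 1207 in line 10d, 1806 in line 13d, 4607 in line 14d and 1216 in line 9v. Line 14d was 3.79 times line 9v by this probe set and 4.12 times by the other. Rab24, which has been linked to autophagy, had an intensity of 2185 in line 10d, 1624 in line 13d, 1030 in line 14d and 1832 in line 9v. Here line 14d was the lowest.

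Of the Rab genes of the endoplasmic reticulum and Golgi, Rab6b, the isoform of Rab6 that is most abundant in brain, had an intensity of 8 in line 10d, 57 in line 13d, 395 in line 14d and 203 in line 9v. Line 10d was at least 6.34-fold below line 9v. This rests on a probe set whose suffix marks possible matches to other transcripts, and by the other probe sets of Rab6b lines 10d and 9v were both under 32. Of these, 1 had an intensity of 5 in line 10d, 9 in line 13d, 114 in line 14d and 19 in line 9v, and another had 23 in line 10d, 22 in line 13d, 36 in line 14d and 23 in line 9v. All 3 probe sets were highest in line 14d. Rab6a, the ubiquitous isoform, had an intensity of 6857 in line 10d, 5551 in line 13d, 7867 in line 14d and 8005 in line 9v. Rab39b, an X-linked gene known from neurons, had an intensity of 7 in line 10d, 8 in line 13d, 292 in line 14d and 7 in line 9v. It was detected in line 14d alone, at least 9.13-fold above the others, and its second probe set, with 78 in line 14d and 4 in each other line, had the same pattern. Rab2b, which acts between the endoplasmic reticulum and the Golgi, had an intensity of 395 in line 10d, 295 in line 13d, 595 in line 14d and 477 in line 9v. Line 14d was 2.02 times line 13d.

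None of the 8 detected recycling Rab genes was 2-fold apart between any lines by its brightest probe set, beside 40.1% of all detected genes. Their log2 differences between line 10d and line 9v ranged from -0.49 to 0.60. Rab22a, which takes part in sorting from early to recycling endosomes, had an intensity of 466 in line 10d, 462 in line 13d, 406 in line 14d and 308 in line 9v. Rab35, which acts in fast recycling to the plasma membrane, had an intensity of 391 in line 10d, 483 in line 13d, 631 in line 14d and 548 in line 9v. Rab4a, another gene of fast recycling, had an intensity of 499 in line 10d, 737 in line 13d, 482 in line 14d and 450 in line 9v. Rab11b, which is known to act in melanin transfer, had an intensity of 1583 in line 10d, 2267 in line 13d, 2152 in line 14d and 1803 in line 9v. A second Rab11b probe set had 161 in line 10d, 271 in line 13d, 261 in line 14d and 122 in line 9v. There, line 13d was 2.22 times line 9v and line 14d was 2.14 times line 9v. In the last group, Rab23 and Rab28, both linked to cilia, had intensities of 318 and 1595 in line 10d, 244 and 1127 in line 13d, 203 and 2039 in line 14d, and 302 and 1520 in line 9v. Rab40c, a member with a domain that recruits a ubiquitin ligase, had an intensity of 705 in line 10d, 502 in line 13d, 778 in line 14d and 590 in line 9v. Its relative Rab40b reached 46 in line 14d and was at 7 in each other line.

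Across all 4 lines, 11 of the 44 detected Rab GTPase genes, or 25%, were at least 2-fold apart between the highest and the lowest line, against 40.1% of all 9415 detected genes. They were Rab6b, Rab3d, Rab20, Rab39b, Rab31, Rab3b, Rab34, Rab13, Rab5b, Rab24 and Rab2b. The other 33 spanned 1.13-fold to 1.90-fold, with a median of 1.44-fold, each by its brightest probe set. Among them, Rab3a, Rab11b and Rab40c were over 2-fold apart by another detected probe set. The median range on the log2 scale was 0.64 over the 44 genes, beside 0.84 over all detected genes. Without line 14d the count was 6, since Rab34, Rab39b, Rab13, Rab24 and Rab2b then spanned less than 2-fold. Line 14d had the single highest value in 23 of the 44 genes (52.3%), against 29.6% of all detected genes. Most of these leads were under 2-fold. Line 14d lay at least 2-fold above every other line in 2 of the 44 genes (4.55%), against 2.51% of all detected genes. It was the highest in 21 to 24 genes under other scalings and choices of probe set. Lines 10d, 13d and 9v were the highest in 8, 7 and 5 genes, and 1 gene was tied.

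**Figure D3:**
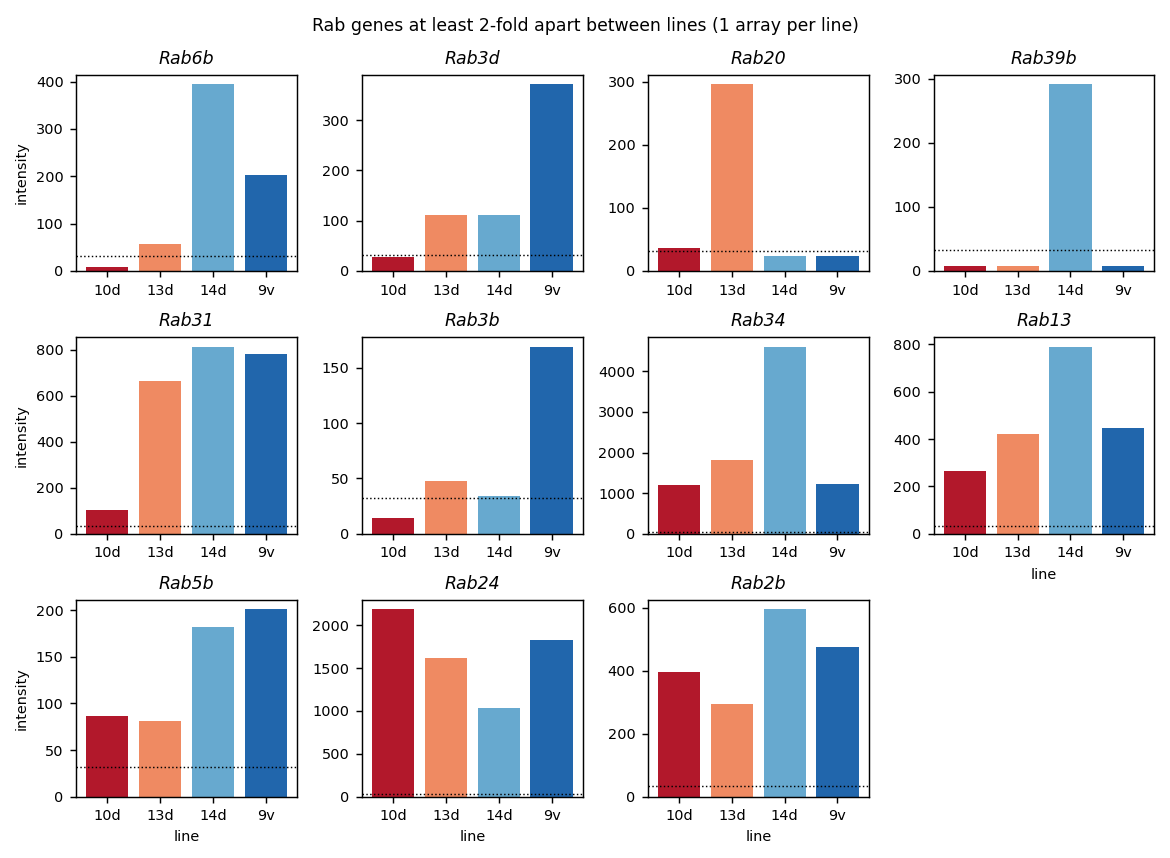
Deposited intensity (linear axis from 0, own scale per panel) of the 11 Rab genes at least 2-fold apart between any of the lines, 1 array per line and therefore without error bars. The dotted line marks an intensity of 32. Rab31 is low in line 10d alone, Rab20 high in line 13d alone, and Rab39b and Rab34 highest in line 14d.

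The pairs of lines were also counted for 2-fold differences in either direction. Lines 10d and 13d differed in 3 of 42 Rab GTPase genes (7.14%), against 14.8% of all detected genes, and lines 10d and 14d in 8 of 44 (18.2%), against 23.9%. Lines 13d and 14d differed in 6 of 44 (13.6%), against 19.7%, lines 13d and 9v in 5 of 42 (11.9%), against 13%, and lines 14d and 9v in 4 of 43 (9.3%), against 15.4%. The pairs share lines and are not independent.

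**Figure D4:**
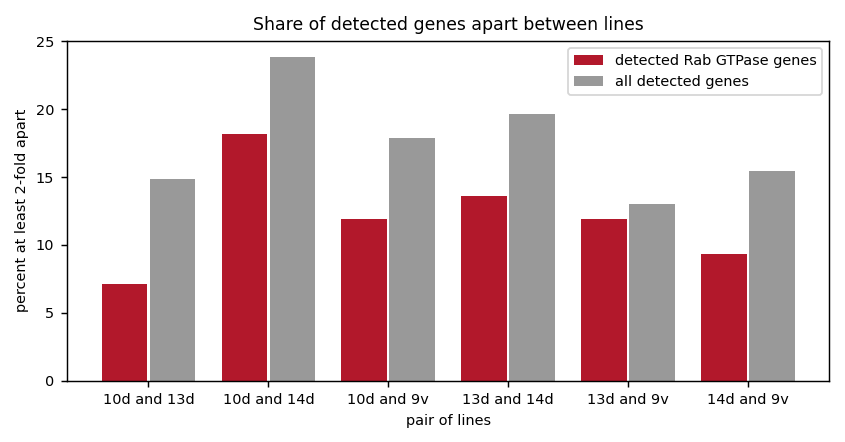
Percent of detected genes at least 2-fold apart in either direction, for each pair of lines, in Rab GTPase genes (red) and in all detected genes (grey). The red bar is the lower in each pair, and lines 10d and 14d have the highest shares, 18.2% of Rab GTPase genes and 23.9% of all genes.

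Both readings of the genotypes were fitted over the 4 lines with limma, with adjustment over all 9415 detected genes. With the labels, lines 10d and 13d (bcat*) were set against lines 14d and 9v (WT), and 0% of all genes and none of the 44 Rab GTPase genes passed an adjusted p of 0.05. The lowest adjusted p of a Rab gene was 0.498, that of Rab5b, with a log2 difference of -1.19 (SE 0.24). At an unadjusted p under 0.05 there were 2 Rab genes, Rab5b and Rab6b, and 737 genes in all (7.83%). For Rab6b, with an adjusted p of 0.596, the fit used the intensity of 8 in line 10d, which is under the detection level, so that no size is given. In both genes the values of lines 10d and 13d were under those of lines 14d and 9v by the brightest probe set, the only one fitted. By the second Rab5b probe set line 14d, at 79, lay nearer to lines 10d and 13d, at 56 and 64, than to line 9v, at 185. For Rab27a, Rab38 and Rab32 the log2 differences were -0.19, 0.14 and 0.06, with 95% intervals from -0.92 to 0.55, from -0.61 to 0.90 and from -0.83 to 0.95. Differences of either sign within these intervals remained compatible with the 4 arrays. With the genotypes of the article, lines 10d and 14d (bcat*) were set against lines 13d and 9v (WT). Again 0% of all genes and none of the Rab GTPase genes passed, with 309 genes (3.28%) and 0 Rab genes at an unadjusted p under 0.05. The log2 difference of Rab5b was then -0.02 (SE 0.66). The median log2 difference of the 44 genes was -0.19 in the first fit and 0.11 in the second, beside 0.02 and 0.01 over all genes.

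The genes that load, unload and bind Rab proteins were taken from a list of 77 measured genes, of which 58 were detected in line 10d or line 9v. In line 10d, 2 of the 58 lay 2-fold or more above line 9v and 6 lay 2-fold or more below it, beside the 7.85% and 10% given above for all genes. Of the 6 lower genes, 4 were GTPase-activating proteins, of which 16 were detected. The other 12 of these lay within 2-fold, and the median log2 difference of the 16 was 0.03. Rabgap1l had an intensity of 89 in line 10d, 161 in line 13d, 806 in line 14d and 603 in line 9v, and Tbc1d1 had 59 in line 10d, 247 in line 13d, 246 in line 14d and 325 in line 9v. Of 16 detected exchange factors, Dennd4a was 2.13-fold higher in line 10d, with an intensity of 296 in line 10d, 168 in line 13d, 204 in line 14d and 139 in line 9v. Of 17 detected effectors of endosomes, recycling and secretion, Rufy1, an early endosome effector, was 2.23-fold higher in line 10d than in line 9v, and Rims2, an effector of Rab3, was 2.09-fold lower. Rufy1 had an intensity of 437 in line 10d, 324 in line 13d, 253 in line 14d and 196 in line 9v. Rims2 had 34 in line 10d, 39 in line 13d, 223 in line 14d and 71 in line 9v. Lines 10d and 13d were thus both near the detection level for Rims2, and line 14d was the highest. All 7 genes of prenylation and membrane extraction, which attach the lipid anchor of Rab proteins or remove them from membranes, lay within 2-fold between line 10d and line 9v. Of 9 measured effectors of Rab27, 3 were detected in any line, and they are named after their values were seen. Mlph, which encodes melanophilin, had an intensity of 9078 in line 10d, 10319 in line 13d, 7472 in line 14d and 8138 in line 9v. Sytl2, a second effector of Rab27a on melanosomes, had 10963 in line 10d, 8614 in line 13d, 5559 in line 14d and 12228 in line 9v, while Sytl4 was detected in line 14d alone, with 117. No gene of this list passed an adjusted p of 0.05 in either limma fit.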

How the data were processed

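Total RNA of 4 melanocyte lines, 1 array each, was measured on an Affymetrix mouse array, with RNA integrity numbers of 9.7 to 9.9. Each deposited value is the intensity of a probe set. GCRMA, a background correction and normalization that uses probe sequence, is named without a version in the submitters' processing notes. The values are whole numbers from 2 to 84904, read here as a linear scale, and rounding makes ratios of dim probe sets coarse. Of 45037 probe sets, 34945 had 1 gene in a platform annotation, 932 had several and 9160 did not appear in it. After conversion of the deposited intensities to log2, each of the 18193 genes was read from whichever of its probe sets had the highest mean. A gene was detected at an intensity of 32 in the brighter of the lines compared. The fits used limma (lmFit and eBayes) with Benjamini-Hochberg adjustment, on log2 values not raised to the detection level, and the code was tested on simulated data. The p-values and SEs rest on the spread between 2 lines per genotype, with 2 residual degrees of freedom. By eBayes the spread of each gene was drawn toward that of all detected genes. The total degrees of freedom were 3.89 in the labelled fit and 3.73 in the fit with the genotypes of the article.

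The members, role lists and alternatives were chosen with earlier results of these data known. Genes were named by a rule: Rab27a, Rab38 and Rab32, each Rab gene 2-fold apart between lines 10d and 9v, the 3 detected members of each role list with the widest range over the lines, each Rab gene past the adjusted threshold in a fit, and up to 2 regulators per list among those 2-fold apart. This gave 20 members, and the others given with values were chosen after these were seen. Alternatives were other choices of probe set, normalizations, detection levels and thresholds, a trend or sex in the fits, and leaving out lines. The software was R 4.3.3 with limma 3.58.1 and Python 3.11.15 with pandas 2.3.3 and matplotlib 3.10.9.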

Additional observations from a re-analysis of the deposited data

How the results depend on the processing

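The number of Rab genes at least 2-fold apart between lines 10d and 9v was 4 or 5 with the mean of all probe sets, without probe sets of possible cross-hybridization, with median centring, cyclic loess or quantile normalization, with detection levels of 16 and 64, without raising values and at a 3-fold threshold. The share of all detected genes was 14.5% to 19.4% in the alternatives at 2-fold. At 3-fold the Rab count was 4 of 42, against 7.37% of all detected genes. At 1.5-fold it was 8 of 42, against 37.3%. The number apart between any of the 4 lines was 24 of 44 at 1.5-fold, against 69.6% of all detected genes. At 3-fold it was 7 of 44, against 18.7%. Under the other alternatives it was 11 or 12, against 32.6% to 43.4%. Leaving out each line in turn, an alternative chosen after seeing the data, gave 6 to 10, against 26.8% to 33.9%. Under the labelled genotypes, no Rab gene passed under any alternative but 1. Without a filter on dim genes, 2 of 59 passed, against 1.54% of all genes. These were Rab3c and Rab7b, whose intensities were 11, 11, 12 and 12 and 9, 9, 10 and 10 in lines 10d, 13d, 14d and 9v. Both lie under the detection level and differ by the rounding step. With the genotypes of the article, the count was 0 under every alternative. Leaving out each line gave 0 to 0 Rab genes in both fits, where the lone line of a genotype is assumed to vary like the other group. Labelled sex as a block, which pairs the male lines 10d and 9v and the female lines 13d and 14d, also gave 0 in both. Of 167 alternative values for the 20 named members between lines 10d and 9v, 159 moved by no more than 1.5-fold, 8 moved further, those of Rab3b, Rab3d and Rab6b, and none of a gene at least 2-fold apart reversed. The differences of these 3 genes are bounds set by the detection level, and averaging the probe sets of Rab3d gave a log2 difference of -1.06. Averaging the probe sets of Rab6b, or leaving out those of possible cross-hybridization, left it under the detection level in lines 10d and 9v, so that no value could be given. The labels give no replicate numbers, so that no fit with these as a block was made.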

Other observations

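Of the 3 genes that share the Rab prefix but encode no GTPase, Rab10os, an opposite-strand transcript beside Rab10, had an intensity of 308 in line 10d, 328 in line 13d, 1020 in line 14d and 788 in line 9v. Lines 10d and 13d were both under lines 14d and 9v, and the log2 difference of the labelled bcat* lines from the labelled WT lines was -1.50 (SE 0.27), with an adjusted p of 0.453 by limma. This rests on the brighter of its probe sets. The second Rab10os probe set was under the detection level in every line, at 19 to 23. The annotated spans of Rab10os and Rab10 overlap on chromosome 12, from 3235791 to 3250374 and from 3247428 to 3309969 in GRCm38.p6, and Rab10 had an intensity of 3419 in line 10d, 3325 in line 13d, 4142 in line 14d and 3018 in line 9v. Rab3il1 had an intensity of 19 in line 10d, 49 in line 13d, 16 in line 14d and 62 in line 9v by its brightest probe set, with an adjusted p of 0.984 under the genotypes of the article. Rab26os had an intensity of 8 in all 4 lines.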
